A study of Mus musculus with 8 samples.

Results

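Growth factor and kinase signalling was examined through the splicing of 6 genes: Ptpn11, Shc1, Mapk9, Mark3, Slk and Axin1. They were taken by gene name from 2 deposited tables, one of local splicing variations and one of junction usage. They had been picked because those tables list them as changed, so their values below are descriptions and no test is attached to them. The first table held 7 of its 862 variations in 5 of the genes, with 17 of its 6866 junctions. The second held 4 of its 498 events in 3 of the genes. Together the tables name 638 genes.

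The cells were cultured hepatocytes, the liver cells that carry out most of its metabolism, from C57BL/6J mice with Srsf3-flox alleles. In the tested cultures an adeno-associated virus (AAV) carried Cre recombinase, which cuts out the floxed part of Srsf3 (genotype Srsf3-KO, 4 libraries). In the control cultures the virus carried green fluorescent protein (GFP; genotype Srsf3-flox, 4 libraries). Both groups carried the floxed alleles and were infected for 48 h, and the labels do not say whether the libraries of a group came from separate mice. Both tables hold splicing ratios and no expression levels, so the cells could not be checked against hepatocyte markers, and neither gives values per library, so the spread between libraries and their depth are unknown. As a check of the labels, Srsf3 itself joined exon 1 to exon 2 at a share of 0.157 in AAV-Cre and 0.998 in AAV-GFP in the authors' deposited table.

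Growth factor receptors pass their signal on through adaptors such as SHC1, which dock on phosphorylated tyrosines and lead to RAS and ERK. The phosphatase SHP2, the product of Ptpn11, is needed for full RAS and ERK activation downstream of many receptors. JNK2, the product of Mapk9, is a stress-activated kinase. MARK3 phosphorylates proteins of cell polarity and the cytoskeleton, and SLK is a kinase of the STE20 family that acts on the cytoskeleton. AXIN1 is the scaffold of the complex that marks beta-catenin for destruction in Wnt signalling. SRSF3 is an SR protein, a family of RNA-binding proteins that bind exons and direct the choice of splice sites.

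The alternative sequences themselves ran from 5 nt in Mapk9 to 168 nt in exon 2 of Shc1. All but the 5 nt of Mapk9 had lengths divisible by 3. Those of Ptpn11 and Mapk9 are tandem 3′ splice sites, where the start of an exon is moved by a few bases. The sequences come from GENCODE vM21 transcripts (GRCm38, the assembly of mm10), run 5′ to 3′ and show the end of the exon before the site in lower case. In Ptpn11 (chr5:121144685-121144696, minus strand) the capitals are the 12 nt that the upstream site adds to exon 11. In Mapk9 (chr11:49883142-49883146, plus strand) the capitals are the 5 nt that the upstream site adds to the last exon, and that form is shown up to its stop codon. Both stretches in capitals end in CAG, the last bases before the downstream site.
Ptpn11 with the 12 nt: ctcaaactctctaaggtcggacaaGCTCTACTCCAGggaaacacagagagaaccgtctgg
Ptpn11 without the 12 nt: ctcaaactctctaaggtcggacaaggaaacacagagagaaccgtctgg
Mapk9 with the 5 nt, short end: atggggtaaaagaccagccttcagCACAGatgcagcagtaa
Mapk9 without the 5 nt, long end: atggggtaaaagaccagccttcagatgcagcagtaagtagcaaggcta

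In Mark3 an exon of 27 nt (chr12:111651958-111651984) and one of 45 nt (chr12:111653390-111653434) lie between exon 15 and the last exon, on the plus strand. The lines below show the 3 annotated ways of joining them, with 12 nt of the exon before and of the exon after, and the 27 nt exon in capitals.
Mark3 with both exons: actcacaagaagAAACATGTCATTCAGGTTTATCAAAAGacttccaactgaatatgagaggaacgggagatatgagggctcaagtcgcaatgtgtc
Mark3 with the 45 nt exon only: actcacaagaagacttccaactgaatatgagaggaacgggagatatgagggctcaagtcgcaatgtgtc
Mark3 with neither exon: actcacaagaagtcgcaatgtgtc

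In Shc1 exon 2 (chr3:89422178-89422345, plus strand) carries start codons, and these are what its inclusion decides in the annotation. The line below runs from the start codon of the p52 form at 89422181, through exon 2, to the first bases of exon 3. The capitals are the annotated start codons of p52, of p46 (89422316) and of the transcript that lacks exon 2 (89422929).
Shc1 exon 2: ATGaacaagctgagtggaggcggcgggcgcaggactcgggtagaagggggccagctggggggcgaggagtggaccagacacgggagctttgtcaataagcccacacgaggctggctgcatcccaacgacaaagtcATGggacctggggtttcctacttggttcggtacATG

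Slk and Axin1 each have 1 cassette exon, an exon that is either joined in or skipped. They are exon 13 of Slk (chr19:47627648-47627740) and exon 9 of Axin1 (chr17:26192516-26192623), both on the plus strand and in capitals here, with 12 nt of each neighbouring exon.
Slk exon 13: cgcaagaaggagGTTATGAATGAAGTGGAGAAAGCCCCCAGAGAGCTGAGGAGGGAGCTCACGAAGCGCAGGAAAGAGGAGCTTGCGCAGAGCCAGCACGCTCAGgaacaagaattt
Axin1 exon 9: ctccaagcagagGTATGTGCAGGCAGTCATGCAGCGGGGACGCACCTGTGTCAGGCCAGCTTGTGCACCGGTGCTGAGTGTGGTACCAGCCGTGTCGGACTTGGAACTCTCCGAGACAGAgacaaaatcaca

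A value of the first table is the expected share of a junction among those that the table groups at 1 exon, which for the 6 genes are the alternative junctions that enter or leave it (PSI, percent spliced in, here given between 0 and 1), with 1 value per group. Its change is AAV-Cre minus AAV-GFP. A junction was called changed at an absolute change of at least 0.2, which 13 of the 17 junctions of these genes reached, 7 higher and 6 lower in AAV-Cre. Of all 6866 junctions, 22.3% reached that size. All 7 variations of these genes had at least 1 such junction, against 95.2% of all 862 variations, and 3 of the 7 had one of at least 0.3, against 58.1% of all. Since the genes were chosen from this contrast, nothing is read from those shares. Within a variation a gain of 1 junction is a loss of others, so the split into higher and lower is not a result either. The share of 22.3% also comes from variations with more junctions each (6866 over 862) than those of these genes (17 over 7). The junction just inside the threshold was in Mapk9, with a change of 0.218 in the authors' deposited table, and the one just outside was the Mark3 junction from exon 15 to the 27 nt exon, at -0.194 in the authors' deposited table. None of the junctions or exons of the 6 genes overlaps an exon of another gene in GENCODE vM21.

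**Figure D1:**
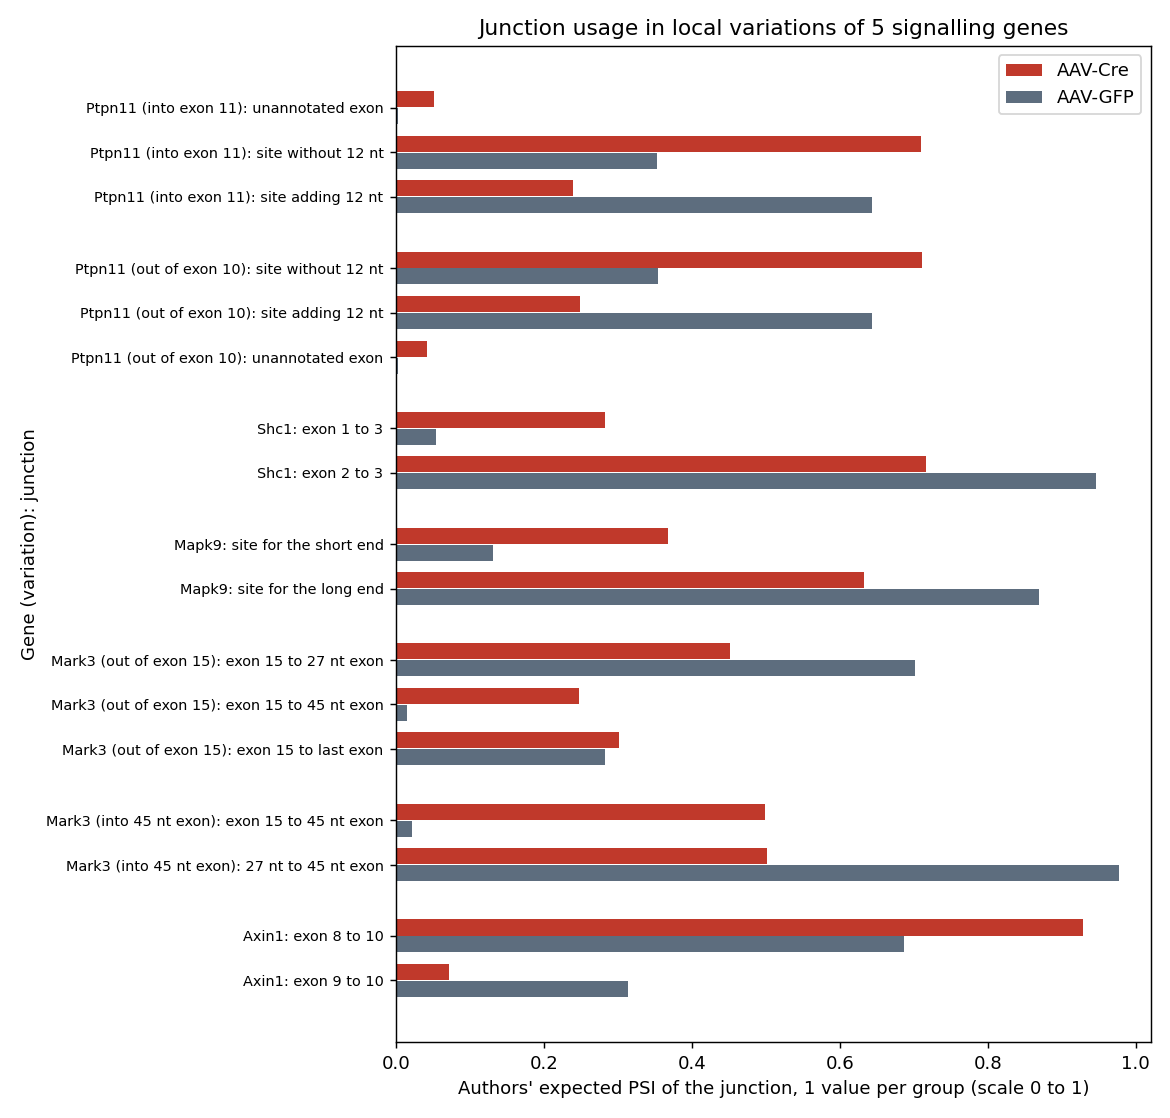
Bars give the authors' expected PSI (scale 0 to 1) of each of the 17 junctions in AAV-Cre (upper bar) and AAV-GFP (lower bar), 1 value per group, so there are no error bars. The Ptpn11 site without the 12 nt is at 0.709 in AAV-Cre and 0.353 in AAV-GFP, and the Mark3 junction from exon 15 to the 45 nt exon, among junctions into that exon, at 0.499 and 0.022.

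Ptpn11 moved from the site that adds 12 nt to the site that does not. Among the junctions that enter exon 11, the site that adds the 12 nt had a PSI of 0.239 in AAV-Cre and 0.644 in AAV-GFP in the authors' deposited table, a change of -0.41. The site without them had 0.709 in AAV-Cre and 0.353 in AAV-GFP in the authors' deposited table, a change of 0.36. The site without the 12 nt was thus the more used one in AAV-Cre and the less used one in AAV-GFP. The 12 nt are codons 409 to 412 of the 597 codons of the longer form, within the catalytic phosphatase domain, and the shorter form has 593 codons. A second variation lists the same junctions from the side of exon 10, at 0.248 in AAV-Cre and 0.643 in AAV-GFP for the site that adds the 12 nt in the authors' deposited table. Both variations rest on the same junctions and are not independent. Of the annotated junctions alone, the site that adds the 12 nt made up 0.252 in AAV-Cre and 0.646 in AAV-GFP.

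Ptpn11 also had junctions to and from an exon of 75 nt (chr5:121146613-121146687) that GENCODE vM21 does not hold. Among the junctions that enter exon 11, the one from this exon had a PSI of 0.051 in AAV-Cre and 0.003 in AAV-GFP in the authors' deposited table. Among those that leave exon 10, the one to it had 0.041 in AAV-Cre and 0.003 in AAV-GFP in the authors' deposited table. The authors' expected changes for these junctions were 0.0030 and 0.0015 in the authors' deposited table, far below the differences between the group values, and neither was called.

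Shc1 joined exon 2 less often. Among the junctions that enter exon 3, the junction from exon 2 had a PSI of 0.717 in AAV-Cre and 0.946 in AAV-GFP in the authors' deposited table. The junction from exon 1, which skips exon 2, had 0.283 in AAV-Cre and 0.054 in AAV-GFP in the authors' deposited table, and the change was 0.23. Exon 2 was the more used choice in both groups. It holds the first 55 of the 469 codons of p52, and the p46 form, with 424 codons, starts at codon 46 of p52. The transcript without exon 2 is annotated with a start at codon 57 of p52, in the same frame, and its end is not complete in the annotation. The p66 form, which has 579 codons and a start codon at 89421851, begins in a longer first exon that has the same end as exon 2. Its junction to exon 3 is therefore the same as that from exon 2, and this share cannot tell p66 from p52 and p46.

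The table of junction usage listed exon 2 of Shc1 as well, and a further exon of it. It holds only events with a p-value below 0.05, each with the authors' p-value, q-value and change, and the rule for a call was a change of at least 0.1 at a q-value no higher than 0.05. For exon 2 the authors' deposited table gave a change of -0.249 (p = 0.0229, q = 0.471). For exon 5, of 120 nt (chr3:89423697-89423816), which encodes codons 101 to 140 of p52, the authors' deposited table gave a change of -0.0424 (p = 0.00348, q = 0.193). Neither passed the q-value threshold. Exon 5 had the smaller p-value and the smaller change of the pair.

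**Figure D2:**
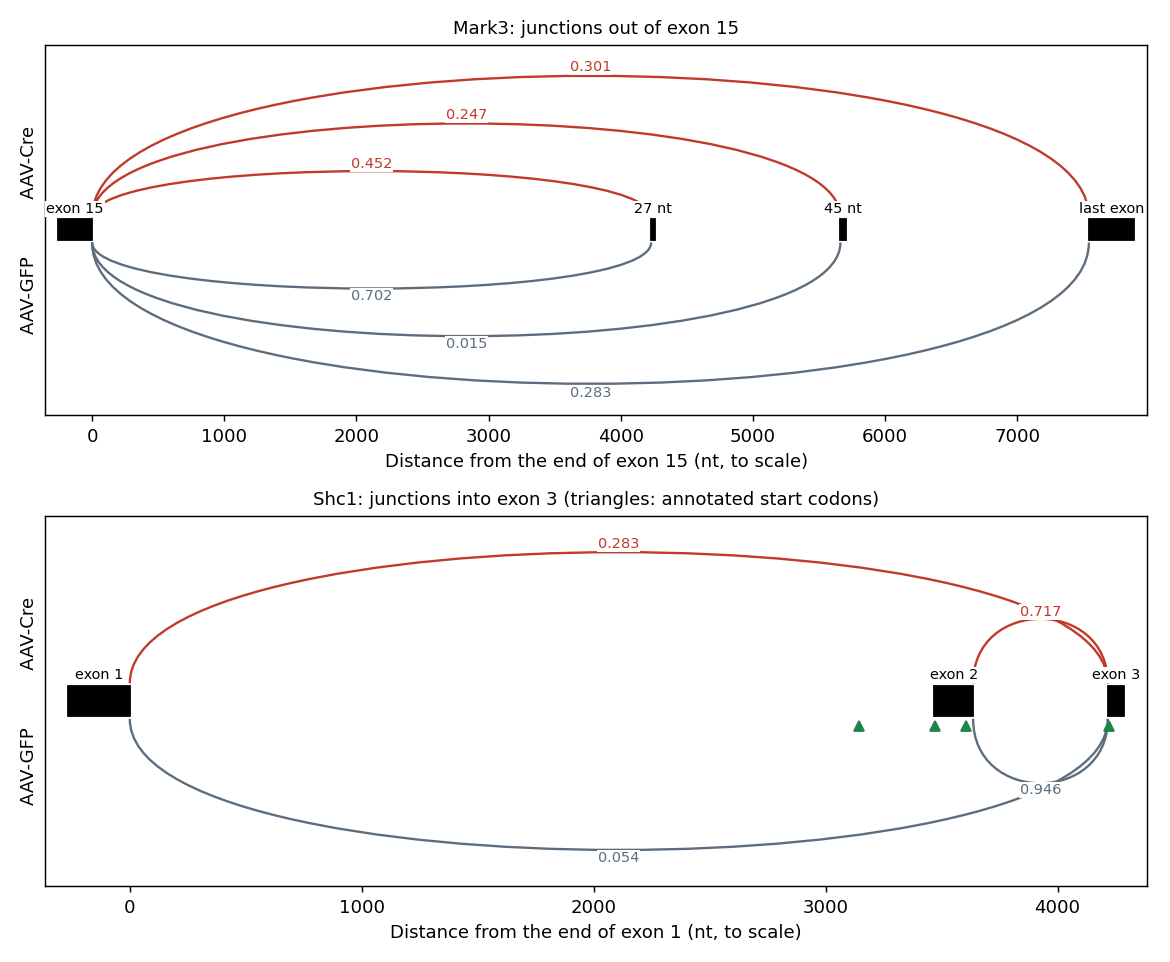
Arcs are junctions and black boxes exons, drawn to scale by distance in nt from the end of exon 15 of Mark3 (top) and of exon 1 of Shc1 (bottom), with the authors' PSI of AAV-Cre above and of AAV-GFP below the exons. In Mark3 the arc to the 45 nt exon is at 0.247 in AAV-Cre and 0.015 in AAV-GFP, and in Shc1 the arc that skips exon 2 is at 0.283 and 0.054. Triangles are the annotated Shc1 start codons, from left to right those of p66, p52, p46 and the transcript without exon 2. The last exon of Mark3 is drawn only to the end of its coding part. The Shc1 boxes are those of a p52 transcript, so the p66 triangle lies outside them, in a longer exon that is not drawn.

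Mapk9 used the short end more often. The upstream site of the last exon, which adds 5 nt, had a PSI of 0.368 in AAV-Cre and 0.131 in AAV-GFP in the authors' deposited table, a change of 0.22. The downstream site had 0.632 in AAV-Cre and 0.869 in AAV-GFP in the authors' deposited table and was the more used one in both groups. The 5 nt shift the reading frame, so that the forms part at codon 377. With them the protein ends after 381 codons, the short p46 form of JNK2, and without them after 423 codons, the long p54 form. Ptpn11 and Mapk9 thus moved in opposite directions along the transcript, Ptpn11 to the downstream site of its pair and Mapk9 to the upstream one. Mapk9 was not among the genes of the junction usage table.

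Mark3 entered its 45 nt exon less often from the 27 nt exon and more often directly from exon 15, the largest change among these genes. Among the junctions that enter the 45 nt exon, the one from the 27 nt exon had a PSI of 0.501 in AAV-Cre and 0.978 in AAV-GFP in the authors' deposited table. The one from exon 15 had 0.499 in AAV-Cre and 0.022 in AAV-GFP in the authors' deposited table, a change of 0.49. The 2 junctions were thus used about equally in AAV-Cre, while in AAV-GFP nearly all entries came from the 27 nt exon.

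The junctions that leave exon 15 of Mark3 gave a second view. The junction to the 27 nt exon had 0.452 in AAV-Cre and 0.702 in AAV-GFP in the authors' deposited table, was the most used one in both groups and was not called. The junction to the 45 nt exon had 0.247 in AAV-Cre and 0.015 in AAV-GFP in the authors' deposited table, a change of 0.22. The junction to the last exon, which skips both, had 0.301 in AAV-Cre and 0.283 in AAV-GFP in the authors' deposited table, with a change of 0.0014. The skip of both exons thus had nearly the same share in both groups, and the values that differed were those of the 27 nt exon and the 45 nt exon. Of the junctions from exon 15 to either small exon, the share to the 27 nt exon was 0.647 in AAV-Cre and 0.979 in AAV-GFP. In AAV-GFP this is close to the 0.978 seen from the 45 nt exon, while in AAV-Cre it is above the 0.501 seen there. The transcripts shown with both exons, the 45 nt exon only and neither have 753, 744 and 729 codons, another annotated transcript with the 45 nt exon only, which has an extra exon before these, has 797, and the added codons lie ahead of the C-terminal KA1 domain. Mark3 was not among the genes of the junction usage table.

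Slk was listed by junction usage alone. Its exon 13, of 93 nt, had a change of -0.340 in the authors' deposited table (p = 0.00984, q = 0.318), where a negative value, read from the column's heading, is less inclusion in AAV-Cre, and did not pass the q-value threshold. The exon encodes codons 927 to 957 of the 1233 codons of the longer form, and the shorter form has 1202. That table gives no PSI per group, so the level of inclusion in either group is unknown.

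Axin1 was the gene on which the tables differed in sign. Among the junctions that enter exon 10, the one from exon 9 had a PSI of 0.071 in AAV-Cre and 0.313 in AAV-GFP in the authors' deposited table, a change of -0.23. The one from exon 8, which skips exon 9, had 0.929 in AAV-Cre and 0.687 in AAV-GFP in the authors' deposited table. By junction usage the same exon of 108 nt had a change of 0.185 in the authors' deposited table (p = 0.0191, q = 0.430), which by the column's heading is more inclusion in AAV-Cre, and it was not called. Whether the sign of this event follows that heading was not tested, since the table gives no PSI per group. The direction for exon 9 is therefore not settled by these tables. The exon encodes 36 codons, between codons 735 and 771 of the 868 of the longer form, ahead of the C-terminal DIX domain through which AXIN proteins polymerise. The form without it has 832 codons. The first table lists exon 9 only from the side of exon 10, and the junctions that leave exon 8 are not listed there.

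**Figure D3:**
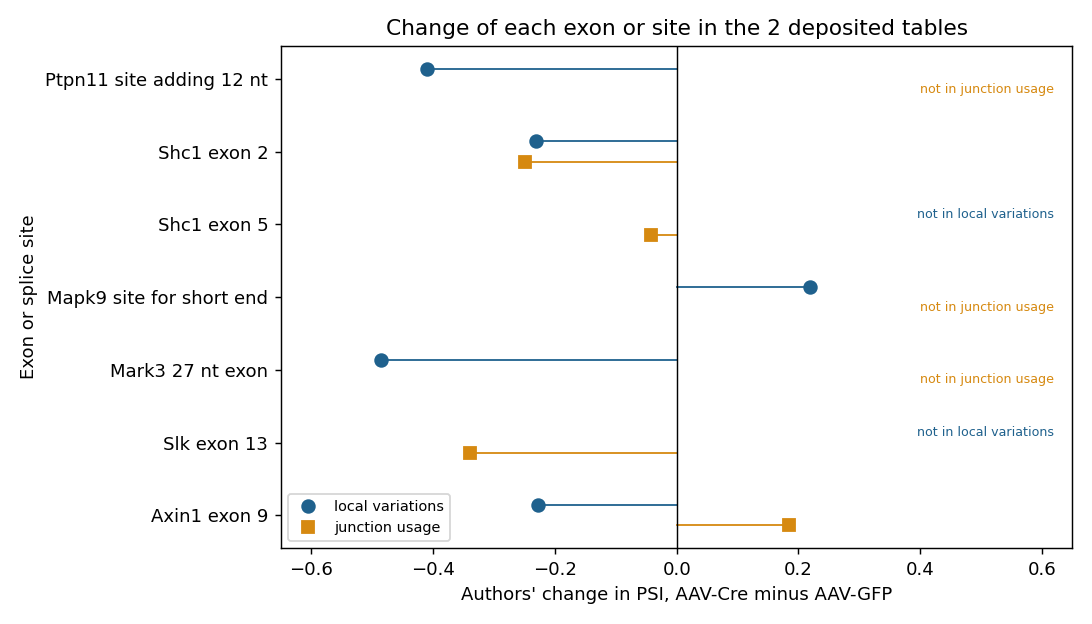
Points give the authors' change in PSI, AAV-Cre minus AAV-GFP, for each exon or site, with 1 value per comparison and no error. Circles are local variations and squares junction usage. The Mark3 circle is the junction from the 27 nt exon among those that enter the 45 nt exon (-0.485). Among the junctions that leave exon 15, the one to the 27 nt exon had a smaller change (-0.194) and was not called. Exon 2 of Shc1 has -0.23 and -0.249 in the tables, while exon 9 of Axin1 has -0.23 by local variations and 0.185 by junction usage.

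Of the 4 events of these genes listed by junction usage, 3 were lower and 1 higher in AAV-Cre, and 0 were called. Of all 498 events 11.4% were called, and of the 131 cassette exons, the class of these 4 events, 12.2%. The 498 events include 63 with no finite change, which could not be called, while all 131 cassette exons had a finite change. All listed events lie below the p-value threshold of that list, so under it only the change of at least 0.1 decides, and 3 of the 4 reach it. The share of all 498 events that reach it was not computed, so nothing is read from this count. Over all 131 listed cassette exons 60.3% were lower in AAV-Cre at any q-value. The same libraries lie behind both tables, so a match describes the files and is no replication. Of the exons of these genes, 2 were found in both tables by coordinates. Exon 2 of Shc1 had the same sign in both, and exon 9 of Axin1 the opposite. In all, 19 cassette exons matched in this way, and 18 of them had the same sign, Axin1 being the exception.

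The cassette exons of these genes all had lengths divisible by 3. These 6 exons were the Mark3 exons of 27 and 45 nt, exon 13 of Slk, exon 9 of Axin1 and exons 2 and 5 of Shc1. Of 180116 internal exons of protein-coding transcripts in GENCODE vM21, 40.4% share this property. That set holds all internal exons and not cassette exons alone. The share among all listed cassette exons was not computed, so nothing is read from the comparison. The 12 nt of Ptpn11 also keep the frame, and the 5 nt of Mapk9 do not. The letters CATC, a sequence that SRSF3 is known to bind, were searched on the sense strand. They occurred 1 time in exon 2 and 1 time in exon 5 of Shc1. Among internal exons of the same length, 59.7% and 47.7% hold them. They did not occur in the Mark3 exons, in exon 13 of Slk or in exon 9 of Axin1, where the shares among internal exons of the same length were 11.7% at 27 nt, 15.1% at 45 nt, 36.6% and 42.7%. The GC content ran from 29.6% in the 27 nt exon of Mark3 to 61.9% in exon 2 of Shc1.

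**Figure D4:**
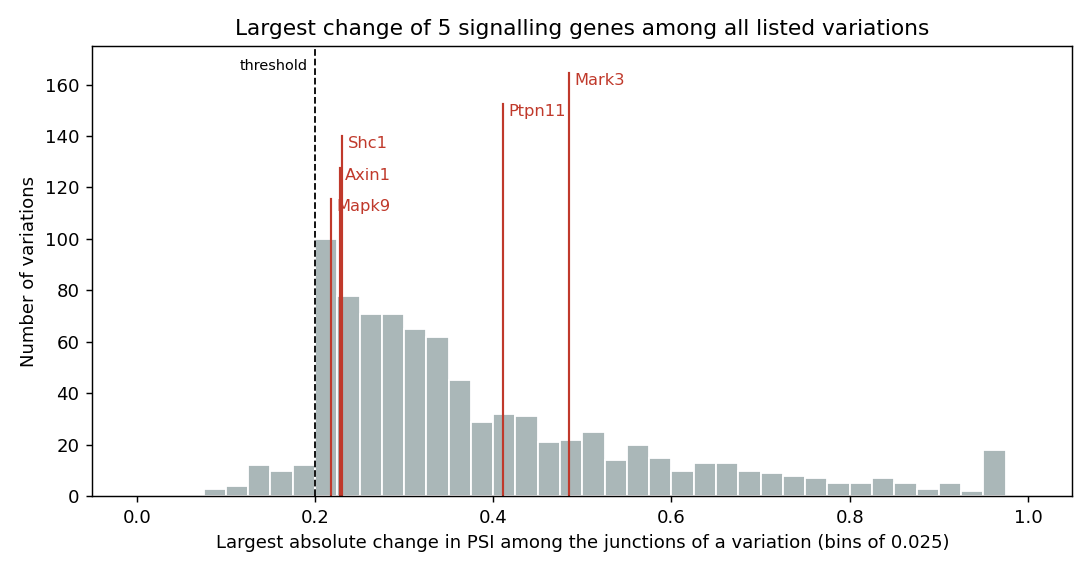
The histogram counts all 862 variations by the largest absolute change in PSI among their junctions, and lines mark the largest value of each of 5 signalling genes (Slk has none). Mark3 (0.485) and Ptpn11 (0.411) lie above the median of 0.329 over all variations, and Shc1, Axin1 and Mapk9 lie close to the threshold of 0.2 (dashed).

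By size, 209 variations of the whole table had a larger change than the largest of Mark3 and 285 a larger one than that of Ptpn11. For Shc1, Axin1 and Mapk9 these counts were 703, 710 and 746 of 862. The median of the largest change was 0.231 over the 7 variations of these genes and 0.329 over all variations. Variations of the whole table hold more junctions each (6866 over 862) than those of these genes (17 over 7). The largest of more values tends to be larger, so nothing is read from these counts or this median. By junction usage the median absolute change was 0.217 over the 4 events of these genes and 0.216 over all events with a finite change.

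The wider pathway was taken as 201 genes in 10 lists, of which 14 were listed in either table and 11 of those called, all by local variations, against 58% of all 638 listed genes. Without the 6 genes described above, 8 of 195 were listed and 6 called. Of all 21877 protein-coding genes in GENCODE vM21, expressed in these cells or not, 2.79% were listed and 1.59% called, and since the lists were drawn up with earlier results known, nothing is read from their counts against these shares. None of the 19 receptors of growth factors and insulin and none of the 18 genes of PI3K, Akt and mTOR were listed, and of 14 ligands only Vegfa, the vascular growth factor. Wnt and beta-catenin signalling had 5 listed and called genes of 29, which were Axin1, Csnk1a1, Dvl1, Dvl2 and Lrp5. The adaptors (24 genes), phosphatases (18) and MARK and AMPK-related kinases (14) had 1 each, which were Shc1, Ptpn11 and Mark3. The JNK and p38 list had Mapk9 and Mapk8ip3 of 24. STE20-like kinases had Slk and Map4k3 listed of 22, and neither was called.

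Among the kinases, Csnk1a1, a casein kinase of the beta-catenin destruction complex, used the longer form of an exon at 0.810 in AAV-Cre and 0.414 in AAV-GFP in the authors' deposited table. By junction usage the same site had a change of 0.363 in the authors' deposited table (q = 0.163) and was not called. An exon of 63 nt in Map4k3, a kinase upstream of JNK, had a change of 0.585 in the authors' deposited table (q = 0.547) and was not called. Vegfa had a composite event with a largest absolute change of 0.176 in the authors' deposited table (q = 0.412).

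Among the Wnt genes, an annotated junction of Lrp5, a Wnt co-receptor, had 0.981 in AAV-Cre and 0.717 in AAV-GFP in the authors' deposited table. Another junction of that variation, which GENCODE vM21 does not hold, had 0.009 in AAV-Cre and 0.249 in AAV-GFP in the authors' deposited table. Dvl1, which links the Wnt receptors to the destruction complex, used an unshortened exon at 0.707 in AAV-Cre and 0.939 in AAV-GFP, and a form of that exon with an earlier end at 0.229 in AAV-Cre and 0.020 in AAV-GFP, in the authors' deposited table. A junction of Dvl2, which has the same role, had 0.381 in AAV-Cre and 0.044 in AAV-GFP in the authors' deposited table. Mapk8ip3, a JNK scaffold, had a junction at 0.665 in AAV-Cre and 0.403 in AAV-GFP in the authors' deposited table, and GENCODE vM21 does not hold that junction. For Dvl2 and Mapk8ip3 the table groups junctions of separate introns within 1 long exon, so these values are not shares among alternatives at 1 splice site.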

How the data were processed

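Stranded mRNA libraries of 4 AAV-Cre and 4 AAV-GFP hepatocyte cultures were read from both ends, per the labels' protocols. FastQC, STAR and the build mm10 are named in the submitters' processing notes, but what each did, and in which version, is not given in the sources used here. The authors deposited expected PSI per group and its change as a fraction, with MAJIQ's VOILA columns, per the file headers. That change is AAV-GFP minus AAV-Cre, as the PSI columns showed for 1531 of 1531 changed junctions, so its sign was turned. The authors deposited p-values, q-values and changes of events by JUM, per the file headers, and 63 of 498 events had no finite change. A column of the first table headed as a probability was not used.

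Members and lists were chosen with earlier results of these data known. Junctions were placed on GENCODE vM21. The transcript shown for a form was complete, in CCDS where possible, with the most exons. Exons were matched between tables by both ends, which recovered 100% of 400 simulated exons. Those exons were made with the coordinate and sign rules that the match assumes. The result therefore checks the code and not the direction of the deposited values. Genes were named by a rule: the members, Srsf3, and list genes called in either table; Map4k3 and Vegfa, listed but not called, were added after their values were seen. The values of 1 list gene are not reported here. Thresholds, the measure of change and the match were varied. Python 3.11.15, numpy 2.4.6 and matplotlib 3.10.9 were used.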

Additional observations from a re-analysis of the deposited data

How the results depend on the processing

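At a change of at least 0.3 in place of 0.2, 6 of the 17 junctions and 3 of the 7 variations were changed, all of Ptpn11 and Mark3. Of all 862 variations 58.1% reached that size. At the same size 4 genes of the signalling lists were called, against 11 before. The shares of all junctions and of all listed genes at that size were not computed, so nothing is read from the junction and gene counts or their fall. Junction usage alone called 0 of the list genes. At the p-value of the deposited list, which every listed event passes, 3 events of the 6 genes had a change of at least 0.1. This count rests on size alone, and the share of all events was not computed, so nothing is read from it. At a q-value of 0.05 the count was 0, and it stayed at 0 at a q-value of 0.1, at a change of 0.2 and by q-value alone. With the difference of the group PSI values as the measure, 16 of 17 junctions kept their side of the threshold, 1 passed it (the Mark3 junction from exon 15 to the 27 nt exon, -0.25 in place of -0.194) and 0 changed sign. Counting each junction once gave 10 changed junctions in place of 13. The total of junctions falls as well, since some of Ptpn11 and Mark3 are listed in more than 1 variation. Any shared junction end gave the same 2 matched exons.

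No paired analysis was possible because neither table holds values per library. For the same reason no library was left out, and depth and replicate spread are unknown.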

Other observations

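In the authors' deposited table the expected change was smaller in size than the difference of the group PSI values by up to 0.0556 over the 17 junctions of these genes, and larger by at most 0.0080. For the unannotated exon of Ptpn11 the group values were 0.051 in AAV-Cre and 0.003 in AAV-GFP with an expected change of 0.0030 in the authors' deposited table.

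Csnk1a1 was the only one of the list genes outside the 6 for which the same site was listed in both tables, with 0.41 by local variations and 0.363 by junction usage in the authors' deposited table, AAV-Cre minus AAV-GFP.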
